A study of Rattus norvegicus with 2 samples.

Results

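The genes described are 10 genes of the Hippo signalling pathway and its nuclear effectors: the coactivators Yap1 and Wwtr1, the DNA-binding factors Tead1 and Tead2, the kinases Lats1, Lats2, Stk3 and Stk4, and the effector targets Amotl2 and Ctgf. They were taken by gene symbol from a table of 23282 rat genes, where each had 1 row, so all 10 of 10 were measured. The levels come from sequencing RNA of 1 group of 2 wild-type libraries, called biological replicates by the study. Both libraries were made from RRRC#464 DA-EC8/Rrrc, 1 embryonic stem cell line of the Dark Agouti rat strain, at passage 30, with a karyotype given as normal. The cells had no treatment and were kept in 2i medium, which blocks the kinases MEK and GSK3 in every sample, so no sample without these inhibitors is at hand. The design therefore holds no contrast between conditions, and what it allows is the level of each gene, its spread over both libraries and the differences between genes.

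The Hippo pathway is a kinase cascade that restrains a pair of transcriptional coactivators. The kinases encoded by Stk4 and Stk3 (MST1 and MST2), held by the scaffold Sav1, activate the kinases Lats1 and Lats2. These phosphorylate YAP (Yap1) and TAZ (Wwtr1), which then stay in the cytoplasm or are degraded. When the cascade is off, YAP and TAZ enter the nucleus, bind TEAD factors, which carry the DNA contact, and raise genes such as Ctgf, Cyr61 and Amotl2. In the early embryo the pathway reads cell position and polarity, and in the outer cells YAP and TEAD proteins turn on trophectoderm genes such as Cdx2. Cascade activity lies in phosphorylation and protein location, and transcript levels do not measure either.

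Part of this output is written in promoter sequence. TEAD factors recognise the core motif GGAATG, which reads CATTCC on the other strand, and this motif was searched on both strands in RefSeq windows from 250 bases before to 50 bases after each gene's start (build GRCr8). Of the 10 genes, 6 had a window there and 3 of these held a match. The stretches before the start of these 3 genes are printed below, 5′ to 3′ in the direction of the gene, with each match in capitals. These 3 were the only ones with a match among the 6 that had a window. Ctgf, named Ccn2 in RefSeq, is shown from 250 bases before the start (chr1:22624615-22624864, minus strand), Amotl2 from 136 to 11 bases before it (chr8:112182490-112182615, plus strand) and Yap1 from 176 to 51 bases before it (chr8:13451488-13451613, minus strand).
Ctgf: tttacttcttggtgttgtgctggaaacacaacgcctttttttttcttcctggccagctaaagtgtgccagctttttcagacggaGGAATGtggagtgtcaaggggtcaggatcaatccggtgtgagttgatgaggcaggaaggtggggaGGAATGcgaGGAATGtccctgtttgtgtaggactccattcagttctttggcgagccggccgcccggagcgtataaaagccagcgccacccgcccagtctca
Amotl2: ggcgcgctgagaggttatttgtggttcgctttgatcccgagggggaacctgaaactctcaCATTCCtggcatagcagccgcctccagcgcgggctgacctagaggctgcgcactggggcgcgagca
Yap1: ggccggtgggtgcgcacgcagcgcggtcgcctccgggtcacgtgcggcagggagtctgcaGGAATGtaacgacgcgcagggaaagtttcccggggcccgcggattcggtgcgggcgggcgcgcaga

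Ctgf held 3 matches, which began 166, 101 and 92 bases before the start and all read in the direction of the gene. A window with 3 or more matches was rare: 32 of 33469 windows of the same length, 0.0956%, held as many. Amotl2 held 1 match, on the opposite strand, beginning 76 bases before the start, and Yap1 held 1 match beginning 116 bases before it. At least 1 match was present in 14.2% of all windows and in 10.9% of the windows of genes whose mean reached 1 RPKM. Wwtr1, Lats1 and Stk4 had a window without these letters, which says only that the letters are not in that window. Tead1, Tead2, Lats2 and Stk3 had no window in the table. A match is a description of the sequence and not a measured binding site.

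Levels are in RPKM as the authors deposited them, that is, reads scaled to the length of the gene model and to the total of each library, so values of different genes are already per length. A gene with a mean of at least 1 RPKM over both libraries is called detected. All 10 genes were detected, where 46.4% of all genes were, and 6 of 10 reached a mean of 10 RPKM, where 29.4% of all genes did. The 6 were Tead2, Yap1, Amotl2, Tead1, Stk4 and Wwtr1. The median of the 10 genes was 24.6 and 23.4 RPKM in replicates 1 and 2. The median of all genes was 0.556 and 0.516 RPKM, and that of detected genes 16.8 and 16.6 RPKM. The lists and members were picked with earlier results of these data known, so these counts describe the genes and do not set them apart from other lists.

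**Figure D1:**
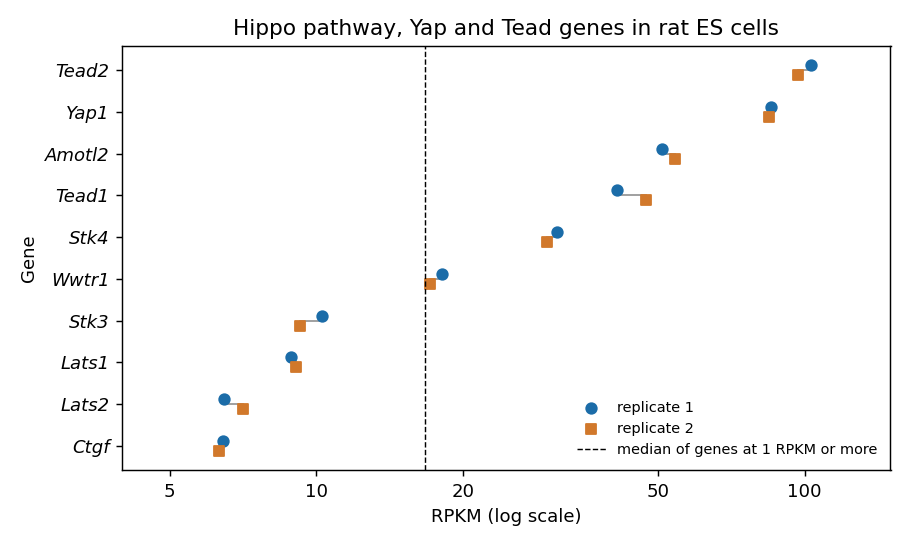
Level of each of the 10 genes in RPKM (x axis, log scale), with circles for replicate 1, squares for replicate 2 and a dashed line at the median of detected genes, 16.7 RPKM. Tead2 and Yap1 stand highest, and Stk3, Lats1, Lats2 and Ctgf lie below the dashed line in both replicates.

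The depth behind these values is not stated and was inferred. Only totals within a preset range were searched, so a total outside it could not be found. Within that range, steps in the deposited values give read totals of 2991184 in replicate 1 and 3050685 in replicate 2. These totals make whole reads of 527 of 2700 and 525 of 2688 rows tried, and they can be too low by a whole factor. At these totals 3 reads in a 2 kb gene model equal 0.501 and 0.492 RPKM. All 10 markers of pluripotent stem cells were detected, beside 46.4% of all genes. They were led by Utf1 at 655 ± 14.1 RPKM (SD, n = 2) and Pou5f1 (Oct4) at 584 ± 9.94 RPKM, with Klf4, the lowest, at 7.05 ± 0.594 RPKM. Of all genes 8902 were listed at 0 in both libraries, and a listed 0 can be a failed estimate rather than absence.

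Among the coactivators, Yap1 was well above its paralog Wwtr1. Yap1 (Entrez gene 363014, rn5 chromosome 8, 6134181 to 6202218, minus strand) was at 85.2 and 84.4 RPKM in replicates 1 and 2. It ranked 1160 of 23282 genes by mean and above 89.3% of detected genes. Wwtr1 (Entrez gene 295062, chromosome 2, 166985078 to 167101346, minus strand) was at 18.0 and 17.1 RPKM. The libraries hardly differed for either gene, and the values of the paralogs lay far apart. Yap1 was 4.72-fold above Wwtr1 in replicate 1 and 4.95-fold in replicate 2, a difference of 2.21 ± 0.04 on the log2(RPKM + 1) scale (SD, n = 2). Yap1 thus made up 82.5% and 83.2% of the summed RPKM of both coactivator genes.

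With 2 libraries no exact permutation test within pairs can go below p = 0.5, so each difference between genes is set beside the spread of the libraries and no test is given. That spread does not cover how well the authors' gene models fit each gene, which both libraries share.

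Tead2 was the highest of the 10 genes. Tead2 (Entrez gene 308582, chromosome 1, 102279567 to 102295451, plus strand) was at 103 and 97.0 RPKM in replicates 1 and 2, rank 933 of 23282 genes. Tead1 (Entrez gene 361630, chromosome 1, 184473372 to 184683039, plus strand) was at 41.2 and 47.4 RPKM. Tead2 stood above Tead1 in both libraries without overlap. It did so by 2.49-fold in replicate 1 and 2.05-fold in replicate 2, a log2 difference of 1.16 ± 0.20 (SD, n = 2), the most variable of the 5 pair differences. Tead3 was far lower, at 6.53 and 5.51 RPKM, and Tead4, the family member best known from the trophectoderm, was not analysed here. Of the summed RPKM of these 3 TEAD genes (151 and 149.8 RPKM), Tead2 took 68.3% and 64.7%, Tead1 27.4% and 31.6%, and Tead3 4.34% and 3.68%. The sum itself was nearly equal in both libraries, while the split moved towards Tead1 in replicate 2.

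The VGLL cofactors bind TEAD factors at a surface that YAP and TAZ also use, and VGLL4 is known to restrain YAP. Vgll4 was the highest of them at 15.5 and 14.2 RPKM, close to Wwtr1. Vgll3 was at 2.27 and 2.51 RPKM, and Vgll1 and Vgll2 were listed at 0 in both libraries. Together 7 of 9 measured genes of the coactivator, TEAD and VGLL list were detected and 5 reached 10 RPKM. The shares of all genes were 46.4% and 29.4%.

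Stk4, Stk3, Lats1 and Lats2 were each lower than Yap1, Tead2 and Tead1 in both libraries. Stk4 (Entrez gene 311622, chromosome 3, 166652145 to 166731210, plus strand) was at 31.1 and 29.7 RPKM. Stk3 (Entrez gene 65189, chromosome 7, 73793742 to 74055204, minus strand) was at 10.3 and 9.26 RPKM. The upstream kinases were thus uneven in each library. Stk4 was 3.02-fold above Stk3 in replicate 1 and 3.21-fold in replicate 2, a log2 difference of 1.55 ± 0.05 (SD, n = 2).

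Lats1 and Lats2, the kinases that phosphorylate YAP directly, were close to each other. Lats1 (Entrez gene 308265, chromosome 1, 3492322 to 3514062, plus strand) was at 8.86 and 9.07 RPKM. Lats2 (Entrez gene 305922, chromosome 15, 41788720 to 41828866, minus strand) was at 6.47 and 7.06 RPKM. Lats1 was the higher in both libraries, by 1.37-fold and 1.29-fold, the smallest of the 5 pair differences at 0.36 ± 0.06 (log2, SD, n = 2). The paralogs therefore shared their summed RPKM almost evenly, with Lats1 at 57.8% and 56.2%. Lats2 is itself a target of YAP and TEAD in many cells, a feedback on the pathway.

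**Figure D2:**
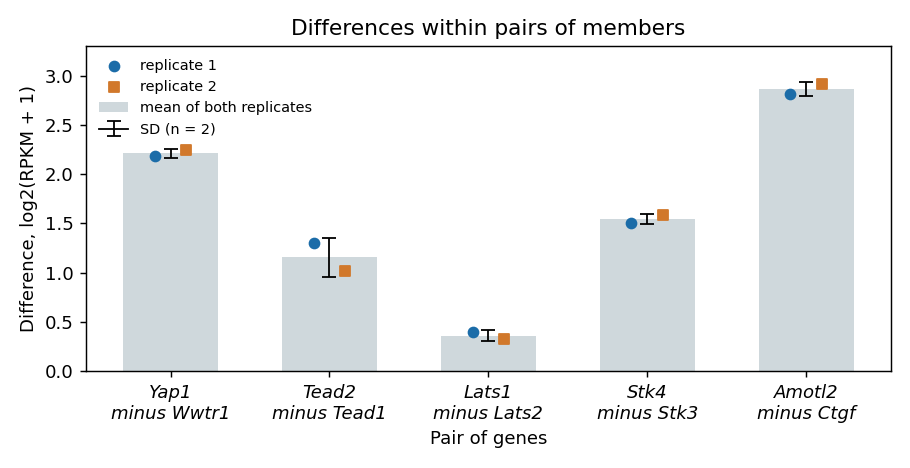
Differences between members on the log2(RPKM + 1) scale: bars show the mean of both replicates, error bars the SD (n = 2), circles replicate 1 and squares replicate 2. Amotl2 and Ctgf are targets, and the other pairs are paralogs. The smallest difference is that of Lats1 and Lats2 (0.36) and the widest error bar that of Tead2 and Tead1 (0.20).

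The remaining genes of the core kinase cassette were all detected. All 9 reached 1 RPKM and 6 reached 10 RPKM, beside 46.4% and 29.4% of all genes. The list median was 14.7 and 13.8 RPKM in replicates 1 and 2. Stk38l and Stk38, which encode the NDR kinases, close relatives of the LATS kinases, were the highest at 143 ± 1.72 and 50.8 ± 2.31 RPKM (SD, n = 2). Mob1a, an activating subunit of LATS and NDR kinases, followed at 34.2 ± 0.107 RPKM, with its paralog Mob1b at 11.5 ± 1.85 RPKM. The scaffold gene Sav1 was at 14.2 ± 0.656 RPKM. Lats2 was the lowest gene of the cassette.

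Amotl2 was well above Ctgf in both libraries, the largest of the 5 pair differences. Amotl2 encodes an angiomotin family protein that binds YAP at cell junctions, and its transcription is raised by YAP and TEAD. Amotl2 (Entrez gene 65157, chromosome 8, 110604450 to 110619840, plus strand) was at 51.1 and 54.1 RPKM in replicates 1 and 2. Ctgf encodes a secreted protein that associates with the matrix and is a widely used readout of YAP activity. Ctgf (Entrez gene 64032, chromosome 1, 23331544 to 23334660, minus strand) was at 6.44 and 6.31 RPKM, the lowest of the 10 genes. Amotl2 stood above Ctgf by 7.94-fold and 8.57-fold, a log2 difference of 2.86 ± 0.07 (SD, n = 2). The Ctgf promoter printed above, with 3 matches to the TEAD core motif, thus belonged to the lower gene, and the Amotl2 promoter, with 1 match, to the higher gene.

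A wider signature of 22 genes known to respond to YAP and TAZ, which includes Amotl2, Ctgf and Lats2, was uneven too. Of 21 measured genes 14 were detected and 5 reached 10 RPKM, beside 46.4% and 29.4% of all genes. The median of the 21 genes was 5.09 and 5.46 RPKM in replicates 1 and 2, below the median of detected genes. Amotl2 was the highest, followed by the damage-inducible gene Gadd45a at 32.5 and 25.4 RPKM and by Dock5, an exchange factor for Rac, at 26.7 and 27.4 RPKM. Cyr61, a close relative of Ctgf, lay near it at 9.10 and 7.93 RPKM. Other classical targets were not detected: Ankrd1 was at 0.383 and 0 RPKM and the receptor kinase gene Axl at 0.125 and 0 RPKM. Ccdc80, Nt5e and Tgfb2 were listed at 0 in both libraries, and Foxf2 was not analysed here. Cyr61, Ankrd1 and Axl are named after their values were seen. Several of these genes answer to other pathways too, so their levels do not measure YAP activity.

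Of these 21 target genes 14 had a promoter window and 5 of the 14 held the core motif, against 14.2% of all windows. The 5 were Amotl2, Cyr61, Ctgf, Nuak2 (4.08 ± 0.512 RPKM) and Ptpn14 (3.22 ± 0.326 RPKM), and each was detected. Of the 9 target genes with a window and no match 5 were detected, from Gadd45a down to Igfbp3 at 2.86 ± 0.257 RPKM. Of all genes 46.4% were detected. A match was present in 10.9% of the windows of detected genes and in 14.5% of the windows of genes below 1 RPKM. In Cyr61, Nuak2 and Ptpn14 the match lay on the opposite strand, 113, 228 and 135 bases before the start. The counts of target genes are small and come from genes chosen as targets, so they describe the windows only.

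**Figure D3:**
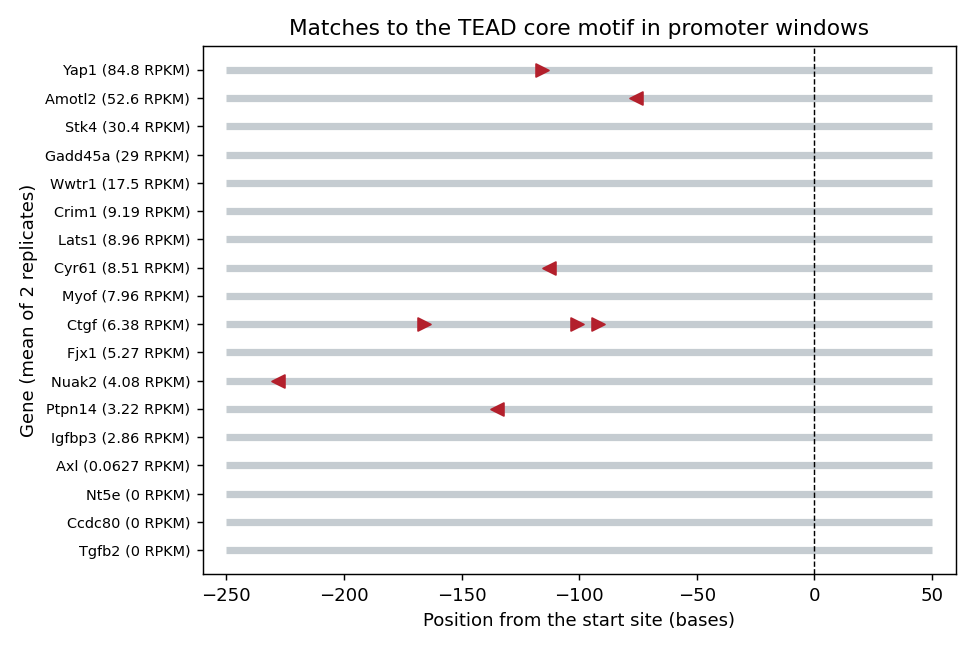
Matches to the TEAD core motif (triangles, pointing right on the gene's own strand and left on the other) along promoter windows from 250 bases before to 50 bases after the start site (x axis), for the members and target genes with a window, ordered by mean RPKM over 2 replicates. Ctgf carries 3 matches, and Yap1, Amotl2, Cyr61, Nuak2 and Ptpn14 carry 1 each.

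Genes of the upstream branches were mostly detected as well. Over 7 lists of pathway genes, 105 different genes were measured, of which 92 (87.6%) were detected and 67 reached 10 RPKM, beside 46.4% and 29.4% of all genes. Of 26 measured scaffold and junction genes 23 were detected. The adhesion genes Cdh1 (E-cadherin, 163 ± 9.49 RPKM) and Ctnna1 (alpha-catenin, 137 ± 2.49 RPKM) and the polarity gene Scrib (67.3 ± 5.07 RPKM) were the highest. Nf2, which encodes merlin, the protein that brings LATS to the membrane, was at 17.0 ± 1.54 RPKM (named after its value was seen). The protocadherin gene Fat4 was listed at 0 in both libraries.

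Within the angiomotin family, Amotl2 exceeded both relatives. Amotl1 was at 9.66 and 9.97 RPKM and Amot at 5.59 and 5.77 RPKM, named after their values were seen. Amotl2 was thus the highest of the 3 in both libraries.

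Kinases that can act in place of MST, of the MAP4K and TAO families, were detected in 9 of 10 cases, beside 46.4% of all genes. Map4k4 (109 ± 3.18 RPKM), Map4k1 (45.0 ± 1.61 RPKM) and Taok2 (31.0 ± 2.36 RPKM) were the highest, and Tnik was at 0.148 and 0.0725 RPKM. Map4k4 alone was thus above Stk4 and Stk3 together in each library.

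All 16 measured genes of STRIPAK, a phosphatase complex that switches MST kinases off, were detected and 14 reached 10 RPKM. The shares of all genes were 46.4% and 29.4%. Ppp2r1a, the scaffold subunit of the phosphatase PP2A, was highest at 274 ± 19.3 RPKM, followed by the kinase gene Stk25 (130.6 ± 4.14 RPKM) and the catalytic subunit gene Ppp2cb (117 ± 2.06 RPKM). Stk24 had the lowest mean at 8.20 ± 0.649 RPKM, close to Ppp2ca at 8.22 ± 1.87 RPKM (named after its value was seen). Ppp2ca was the lower in replicate 1 (6.90 against 8.66 RPKM) and Stk24 in replicate 2 (7.74 against 9.54 RPKM), so their order is not settled. All 17 genes for retention and turnover of YAP and TAZ were detected too, again beside 46.4% of all genes. The adaptor gene Ywhae, whose protein family holds phosphorylated YAP in the cytoplasm, led them at 659 ± 22.4 RPKM. The ubiquitin ligase gene Nedd4 (541 ± 8.80 RPKM) and the adaptor gene Ywhaz (391 ± 14.1 RPKM) followed, and the ligase gene Siah2 was lowest at 5.53 ± 1.54 RPKM. These genes serve many other pathways.

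**Figure D4:**
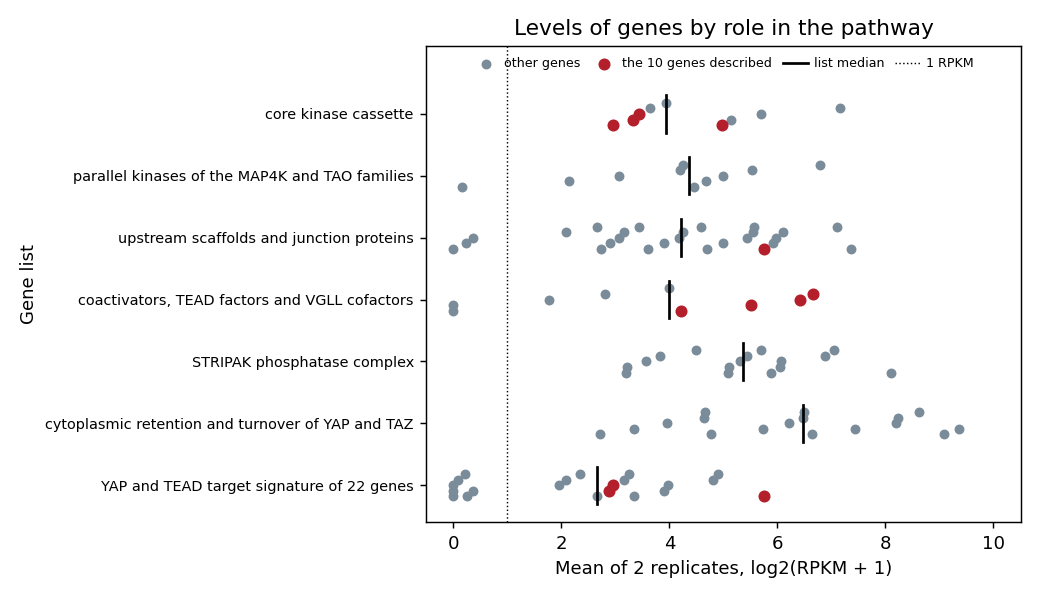
Mean level over 2 replicates on the log2(RPKM + 1) scale (x axis) of every measured gene in the 7 lists, with the 10 described genes in red, black bars at list medians and a dotted line at 1 RPKM. The target signature has the lowest median and 7 of its 21 genes lie left of the dotted line, while all 17 genes for retention and turnover lie right of it.

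The order of the 10 genes by mean was Tead2, Yap1, Amotl2, Tead1, Stk4, Wwtr1, Stk3, Lats1, Lats2 and Ctgf, with a span of 15.7-fold. No neighbours in this order overlapped over the 2 libraries, but some gaps were too narrow to read. Lats2 at its lowest (6.47 RPKM) and Ctgf at its highest (6.44 RPKM) nearly met, as did Stk3 at its lowest (9.26 RPKM) and Lats1 at its highest (9.07 RPKM). Reads behind the values could be recovered for 6 of the 10 genes and show the limit that counting sets. Ctgf rested on 90 reads over both libraries, for an exact 95% Poisson interval of 5.13 to 7.84 RPKM, and Lats2 on 188 reads, for 5.83 to 7.80 RPKM. These intervals overlap, so the order of Lats2 and Ctgf is not resolved at this depth. Amotl2 rested on 2635 reads (50.7 to 54.7 RPKM), Stk4 on 320 (27.2 to 33.9 RPKM), Stk3 on 307 (8.70 to 10.9 RPKM) and Wwtr1 on 163 (15.0 to 20.5 RPKM). The intervals of Stk4 and Stk3, and those of Amotl2 and Ctgf, are far apart. A model length found by chance is likelier for Amotl2, whose reads are the most numerous, than for the other 5 genes. The recovered reads can be too few by a whole factor, which would make these intervals too wide, and they cover counting error only.

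Between the libraries the 10 genes differed little. Over all detected genes, 0.721% (78 of 10814) differed by more than 2-fold in RPKM + 1, and none of the 10 did. Of the 10 genes 6 were higher in replicate 1 and 4 in replicate 2. Tead1 differed most, with replicate 2 higher by 14.9%, a log2 ratio of 0.20, where the SD of that ratio over the 3438 genes within 2-fold of its level was 0.15. Stk3 followed at -0.14, with an SD of 0.25 over genes of its level, and Yap1 differed least at -0.01. Only Tead1 of the 10 thus lay outside 1 SD of genes at its level. For each of the 6 genes with recovered reads the exact 95% binomial interval of the ratio of replicate 2 to replicate 1 held 1, from 0.980 to 1.14 for Amotl2 and from 0.634 to 1.52 for Ctgf, which had 45 reads in each library. These intervals compare the libraries and cover counting error only.

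**Figure D5:**
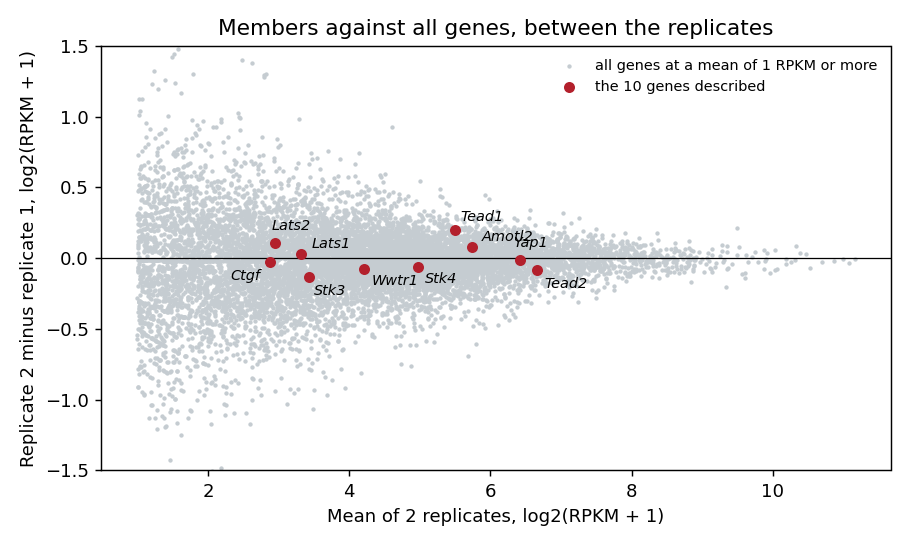
Difference between replicate 2 and replicate 1 (y axis) against the mean level (x axis), both on the log2(RPKM + 1) scale, for all detected genes in grey and the 10 described genes in red. The 10 genes lie between -0.14 and 0.20, and 24 grey points lie beyond the y axis, which ends at 1.5 in each direction.

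Other cell types could add to the levels of YAP targets, since fibroblasts, endothelium and trophectoderm express several of them. In bulk RNA, fewer cells of a type and less RNA per cell cannot be told apart. Of 12 fibroblast and feeder markers 4 were detected (33.3%), beside 46.4% of all genes. Between the libraries 5 of the 12 markers were higher in replicate 2 and 3 in replicate 1, and 4 (Acta2, Col1a2, Lum and S100a4) were listed at 0 in both. Their summed level was 8.39 and 12.7 RPKM in replicates 1 and 2, led by the collagen genes Col1a1 (3.39 and 6.02 RPKM) and Col3a1 (1.32 and 3.16 RPKM). The 3 markers higher in replicate 1 were Tagln (1.91 and 0.624 RPKM), Dcn (0.207 and 0 RPKM) and Pdgfrb (0.125 and 0 RPKM). Ctgf was at 6.44 and 6.31 RPKM and Cyr61 at 9.10 and 7.93 RPKM. The summed level of these markers was higher in replicate 2, as were Amotl2 (51.1 and 54.1 RPKM), Tead1 (41.2 and 47.4 RPKM), Lats1 and Lats2. The other 6 of the 10 genes were higher in replicate 1. In the target signature 9 genes were higher in replicate 2 and 9 in replicate 1. The part of such cells in the levels of these genes was not tested.

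Of 6 endothelial markers Pecam1 (63.9 and 59.4 RPKM), which pluripotent cells also express, and Vwf (0.947 and 1.34 RPKM) were detected (33.3%, beside 46.4% of all genes). Cdh5, Kdr and Emcn were listed at 0 in both libraries, and the summed level was 65.1 and 60.8 RPKM. Of 9 primitive endoderm markers 3 were detected (33.3%), again beside 46.4% of all genes. They were led by Col4a1 (26.7 and 25.6 RPKM) and Lama1 (19.6 and 27.5 RPKM), and the summed level of all 9 was 47.7 and 54.6 RPKM. Gata4, Gata6, Sox7 and Foxa2 were listed at 0 in both.

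Trophectoderm markers bear on the pathway because Cdx2 and Gata3 respond to YAP and TEAD in the outer cells of the embryo. Cdx2 was at 2.45 and 1.76 RPKM, and Gata3, Gata2 and Hand1 were listed at 0 in both libraries. Of 10 such markers 5 were detected (50%), beside 46.4% of all genes, with a summed level of 193 and 198 RPKM. Tfap2c (103 and 109 RPKM), Krt18 (61.3 and 61.1 RPKM) and Eomes (21.6 and 22.3 RPKM) were the highest. The Eomes level rested on only 18 and 19 recovered reads, which can be too few by a whole factor. The other markers were Krt8 (3.61 and 2.95 RPKM), Elf5 (0.494 and 0.161 RPKM) and Krt7 (0.162 and 0 RPKM). The list was thus uneven, with some transcription factors well above 10 RPKM and others listed at 0.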

How the data were processed

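Total RNA of 2 libraries of 1 wild-type group was sequenced as paired reads of 50 bp. The values are RPKM, as deposited by the authors in 1 table whose 2 columns match the ends of the sample titles. CASAVA 1.8 and TopHat 1.4.0, with builds rn5 and Rnor_5.0, are named in the submitters' processing notes. How reads were counted, on which annotation and with what handling of several positions is, in the sources used here, not stated. Reads from near-identical copies can therefore be split or lost.

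The 23716 rows were joined by Entrez identifier and summed to 23282 genes. Levels are means ± SD (n = 2), and differences use log2(RPKM + 1), which understates differences of low genes. No count model was run on RPKM values. The values' steps gave read totals (2991184 and 3050685, whole reads in 527 of 2700 rows and 525 of 2688 rows above 0 with a locus under 6000 bp) and, with the shortest model of 60 to 20000 bp that made both libraries whole within a relative tolerance of 3e-07, the reads of a gene. Simulated data were used to test the read totals and the ratio of reads between libraries, but not the number of reads or the model length. In that simulation each locus was as long as its model, so rows where they differ were not covered. The simulated totals lay inside the preset range of totals that was searched, so a total outside that range was not covered either. Promoter windows came from RefSeq (GRCr8), and those coordinates are not mixed with rn5 positions.

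The members and lists were chosen with earlier results of these data known. Named are all 10 members, all TEAD and VGLL genes, the 3 highest genes and the lowest of each pathway list, up to 4 genes listed at 0, and the 2 highest genes and the lowest of each marker list. Patj and Strip2 were not analysed here, and 1 further gene list is not reported here. Alternatives tried were detection at 0.3 or 3 RPKM, the highest row per gene, a pseudocount of 0.1, libraries rescaled to a sum of 1000000, each replicate left out, a median-centred replicate 2, and other filters for the count between replicates. The software was numpy 2.4.6, scipy 1.17.1, pandas 2.3.3 and, for plots, matplotlib 3.10.9, under Python 3.11.15.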

Additional observations from a re-analysis of the deposited data

How the results depend on the processing

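Of 150 values recomputed under the alternatives 132 stayed within the replicate spread or, for counts, within 1.5 times, and no difference between genes changed direction. Part of that count was fixed in advance. Each of the 10 genes has 1 row, so taking the highest row could not change it. Leaving out 1 of 2 replicates always keeps a mean within their SD. The count therefore does not measure how robust the values are. Rescaling each library to a sum of 1000000 raised the median of the 10 genes to 54.8, since it raises all levels of a library alike. The difference of Amotl2 over Ctgf became 2.96 (log2), since the pseudocount of 1 weighs less on the raised levels. A pseudocount of 0.1 gave 2.27 for Yap1 over Wwtr1, 1.63 for Stk4 over Stk3 and 3.03 for Amotl2 over Ctgf. The genes over 2-fold between the replicates numbered 257 with that pseudocount, 151 with no filter and 1 with a minimum of 10 RPKM. The ratio of Yap1 between replicates, near 0, changed sign when replicate 2 was median-centred. No paired analysis was possible because there is 1 group. Depth limits the genes below about 10 RPKM most, and 2 libraries allow no exact permutation p below 0.5 between genes.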
